A study of Mus musculus with 4 samples.

Results

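The doublecortin and stathmin families are 7 genes of the mouse read count table, the rows with the symbols Dcx, Dclk1, Dclk2, Stmn1, Stmn2, Stmn3 and Stmn4, out of 23240 rows in all. All 7 were among the 15292 genes that passed the filter on low counts. They were measured by RNA-seq in 4 libraries of sorted cells from the cortex at embryonic day 15.5, 2 labelled neural progenitor cells (NPCs) and 2 labelled neurons. All embryos came from heterozygous Nestin-GFP mice crossed to homozygous DCX-mRFP mice and carried both reporters, so the reporter genotype is shared by the groups. NPCs were the cells with green fluorescence, and neurons were the cells with both colours. A cell with red fluorescence alone is therefore in neither group as the labels describe them. The labels call the libraries of a group duplicates. They do not give the strain background, how many embryos were pooled, or whether the duplicates came from separate litters, so p-values reflect spread among libraries that could be technical repeats.

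Both families act on microtubules, the tubulin polymers that shape a migrating neuron and its processes. Doublecortin proteins bind along the microtubule lattice and stabilise it, and mutations of human DCX disturb the migration of cortical neurons. Stathmins bind free tubulin dimers and favour depolymerisation, and phosphorylation of a stathmin weakens its hold on tubulin. Stmn1 encodes the cytosolic stathmin that is also found in dividing cells, whereas Stmn2 (SCG10), Stmn3 (SCLIP) and Stmn4 (RB3) encode neuronal forms with an extension that anchors them to membranes. In the reference transcripts the coding sequence was 450 bases for Stmn1, against 540 for Stmn2, 543 for Stmn3 and 570 for Stmn4.

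The paralogs are alike in sequence, so the closest stretch of the stathmins is shown to let a reader judge whether a read of 101 bases could be counted for the wrong member. The windows below are from the coding sequences of GENCODE M21 transcripts, 5′ to 3′, and capitals mark bases that differ from the first sequence. The most similar pair of 101-base windows was that of Stmn1 and Stmn2, which differed at 13 positions.
Stmn1: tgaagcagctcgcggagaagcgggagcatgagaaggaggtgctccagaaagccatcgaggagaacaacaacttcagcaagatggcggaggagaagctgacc
Stmn2: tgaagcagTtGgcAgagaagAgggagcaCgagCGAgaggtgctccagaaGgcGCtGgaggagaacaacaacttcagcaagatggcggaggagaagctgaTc
Stmn3: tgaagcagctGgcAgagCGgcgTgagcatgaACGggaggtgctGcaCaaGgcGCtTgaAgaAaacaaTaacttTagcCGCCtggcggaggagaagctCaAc
Stmn4: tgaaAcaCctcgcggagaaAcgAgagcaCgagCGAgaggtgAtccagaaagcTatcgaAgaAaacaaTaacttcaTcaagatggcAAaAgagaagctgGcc
Over whole coding sequences, identity at aligned bases ran from 70.4% (Stmn1 and Stmn3) to 74.7% (Dcx and Dclk1). The longest run of identical bases was 43, between Stmn1 and Stmn2. No coding window of read length was thus the same in any of the 9 pairs of members compared within a family. In the GENCODE annotation, exons of 2 genes on the opposite strand covered 87 and 27 of the 15296 exonic bases of Dclk1, and 1 small gene covered 66 of the 1922 of Stmn1. The use of strand in counting is not given in the sources used here.

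Libraries held 52611828 to 55615142 counts, and the 7 members together took 0.295% and 0.287% of counts in the NPC libraries and 0.625% and 0.67% in the neuron libraries. Markers of other cells moved with the groups. In the NPC libraries the summed level was 170.3 and 178 CPM (normalised counts, made comparable across libraries) for 5 oligodendrocyte precursor markers and 239 and 244 CPM for 9 endothelial markers, against 2.85 to 3.58 and 8.27 to 8.35 CPM in neurons. None of these markers was at 0 in every library. All 5 and all 9 passed the test as higher in NPCs, as did 36.9% of all genes tested. So did all 7 red blood cell markers (2298 and 1891 CPM against 310.1 to 316), 5 of 5 tested for pericytes (162 and 168 against 6.18 to 6.30), 8 of 8 for microglia (35.1 and 35.0 against 17.3 to 17.4), 12 of 12 for radial glia (3756 and 3734 against 715 to 738) and 8 of 8 for intermediate progenitors (2930.4 and 2904 against 604 to 619). The radial glia markers include Nes, the gene of the green reporter that helped define the sort, so its pass is no finding. In NPC 1, the globin genes Hba-a1 and Hba-a2 were both at 772 CPM, and Hbb-b1 and Hbb-b2 both at 369 CPM. The red blood cell sum may thus hold shared reads more than once, and its 7 markers are not 7 separate measurements. Cspg4 is in both the oligodendrocyte precursor and the pericyte list, so it enters both counts and both sums. All 10 young projection neuron markers passed as higher in neurons, as did 35.8% of all genes tested. Their summed level was 2536 to 2543 CPM in NPCs and 9189 to 9352 CPM in neurons. The 8 markers of cycling cells were at 1717 to 1746 CPM in NPCs and 379 to 399 CPM in neurons. Of 11 interneuron markers, 5 were higher in neurons and 3 in NPCs, at 205 to 211 and 217 to 230.0 CPM. All 4 Cajal-Retzius markers tested were higher in neurons (39.9 to 40.2 and 159 to 163 CPM). The part of these cells in the results below was not tested.

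Of the 6 members tested, 6 rose in neurons and 0 in NPCs, at an adjusted p of 0.05 in edgeR's quasi-likelihood test over all genes. Stmn2 changed the most, 8.51-fold, followed by Stmn4 at 5.17-fold, Stmn3 at 3.82-fold, Dclk1 at 2.95-fold, Stmn1 at 2.02-fold and Dclk2 at 1.26-fold. By the same rule, 35.8% of all genes tested were higher in neurons (5467 genes) and 36.9% were higher in NPCs (5641 genes), which is 72.6% in all, so a call by itself says little about a member here. Both neuron libraries lay above both NPC libraries in all 6, as they did in 41.9% of all genes. Scaled by library size alone, the split was 3840 against 7610 genes, and the median log2 change of all genes moved from -0.02 to -0.23. When a change of 2-fold or more was also asked for, 5 of the 6 members passed, against 11.5% of all genes in that direction. The 5 included Stmn1 by a narrow margin, since its log2 change went from 0.81 to 1.08 over the 12 alternative settings. In these bulk samples, fewer cells of a type and less RNA per cell cannot be told apart.

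**Figure D1:**
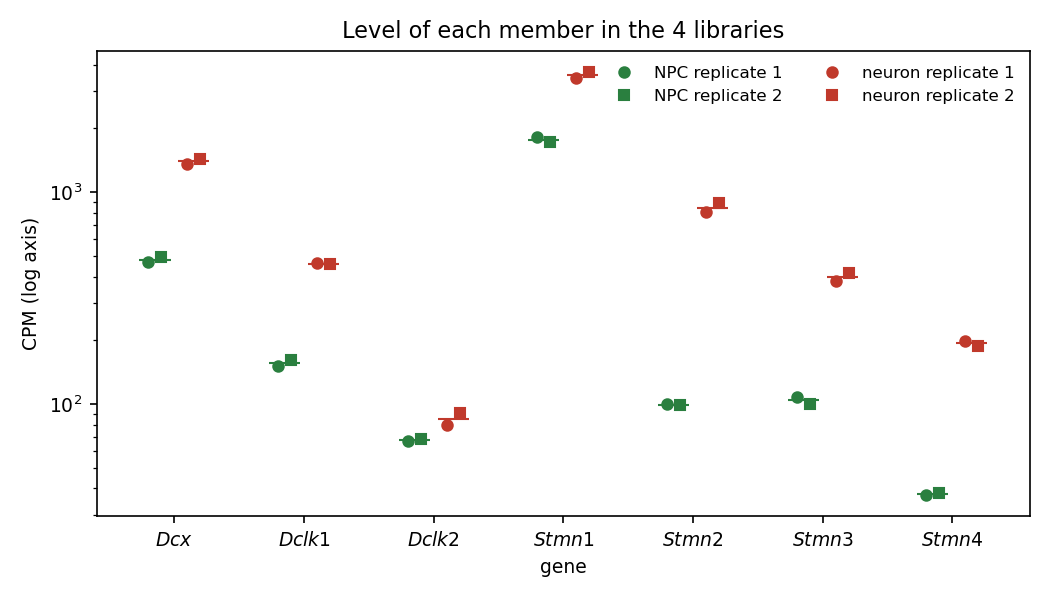
Level of each member in CPM on a log axis, with circles for replicate 1, squares for replicate 2, green for NPCs, red for neurons and short lines for group means (n = 2). In all 6 genes tested both neuron libraries lie above both NPC libraries, as in 41.9% of all genes. The gap is narrowest for Dclk2, at 68.6 against 79.7 CPM. Dcx, which lies the same way, helped define the sort.

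Dcx encodes doublecortin, and DCX-mRFP is the red reporter by which neurons were sorted, so its values check the labels and are no finding. Dcx was at 468 and 493 CPM in the NPC libraries and at 1358 and 1441 CPM in the neuron libraries. The neuron libraries were the higher ones and the groups did not overlap, but NPCs were far from empty of the transcript, at 34.3% of the neuron level. Nes, the other reporter gene, was at 103 and 97.8 CPM in NPCs and 33.1 and 36.4 CPM in neurons. Whether the reporter construct holds Dcx sequence that would be counted is not given in the sources used here.

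Dclk1 encodes a protein with doublecortin domains joined to a kinase domain, and the gene also makes shorter products from internal start sites. It was at 151 and 161 CPM in the NPC libraries and at 461 and 458 CPM in the neuron libraries. The duplicates lay close together and the groups were well apart. The log2 change was 1.56 ± 0.06 (SE, edgeR adjusted p = 1.9e-13), which is higher than that of 93.9% of genes tested. The untested change of Dcx, at 1.54, was of almost the same size. The table gives 1 value per gene, so doublecortin-domain and kinase-only products of Dclk1 were not told apart.

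Dclk2, the close paralog of Dclk1 with the same domain plan, changed far less. It was at 67.0 and 68.6 CPM in NPCs and at 79.7 and 90.7 CPM in neurons. Both neuron libraries were higher, but the gap between them was about as wide as the gap from the lower of them to the higher NPC library. The log2 change was 0.33 ± 0.06 (edgeR adjusted p = 0.00023), higher than that of 70.5% of genes tested. The call depended on scaling, since with library size alone the change was 0.12 with an edgeR adjusted p of 0.094. The ratio of Dclk1 to Dclk2 does not depend on scaling. On the log2 scale it was 1.17 and 1.23 in the NPC libraries and 2.53 and 2.34 in the neuron libraries, a difference of 1.23, or 2.35-fold.

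The other genes with a doublecortin domain were low or changed little. Dclk3, the third gene of the kinase group, held between 6 and 10.1 counts in a library and was removed by the filter on low counts. Of the 6 rows of this kind in the table, 2 were tested. Dcdc2c was the 1 that passed, at 110 and 113 CPM in NPCs and 134 and 119 CPM in neurons. Its log2 change of 0.18 ± 0.06 (edgeR adjusted p = 0.012) turned to -0.023 with library size only and lost its call with upper-quartile factors (0.083, adjusted p = 0.214) and without NPC replicate 1 (0.16, adjusted p = 0.118).

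Stmn1, the cytosolic stathmin, was at 1815 and 1718 CPM in the NPC libraries and at 3446 and 3695 CPM in the neuron libraries. It was already abundant in NPCs, at 49.5% of its neuron level, and the groups did not overlap. The log2 change was 1.01 ± 0.06 (edgeR adjusted p = 1.4e-10). The 8 markers of cycling cells were lower in neurons in the same libraries.

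Stmn2, the stathmin of growing axons, went from 100.3 and 98.6 CPM in NPCs to 803 and 889 CPM in neurons. Its NPC level was 11.8% of its neuron level, the lowest share among the 7 members. The log2 change was 3.09 ± 0.06 (edgeR adjusted p = 9.7e-16), and 54 of the genes tested had a higher one. Stmn4 was at 37.2 and 37.9 CPM in NPCs and at 199 and 188 CPM in neurons. Its log2 change was 2.37 ± 0.06 (edgeR adjusted p = 3.6e-15), and its NPC level was 19.4% of its neuron level. Stmn3 was at 108 and 100.5 CPM in NPCs and at 380.5 and 417 CPM in neurons. Its log2 change was 1.94 ± 0.06 (edgeR adjusted p = 5.7e-14), and its NPC level was 26.1% of its neuron level. In each of these 3 membrane-anchored stathmins both neuron libraries were more than 3-fold above both NPC libraries.

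**Figure D2:**
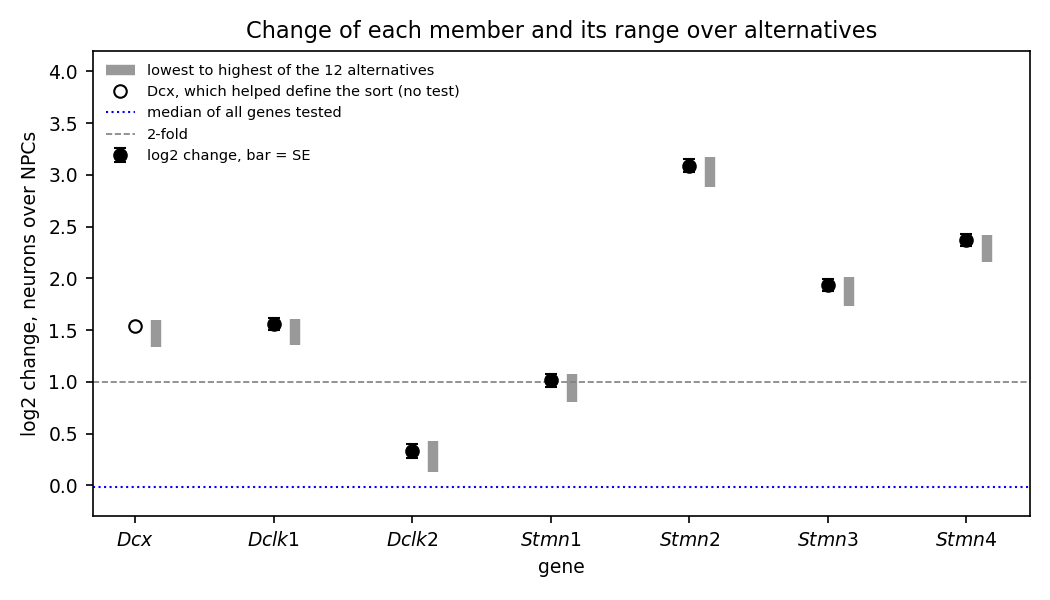
Log2 change of each member, neurons over NPCs, with SE bars (n = 2 libraries per group) and, in grey, the lowest and highest value over the 12 alternative settings. Stmn2 is highest at 3.09 and Dclk2 lowest at 0.33. Dcx is an open circle because it was not tested.

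Ratios of paralogs within a library were compared for 7 pairs, 1 of Dclk genes and 6 of stathmins, since such a ratio is free of scaling and its change between groups is free of gene length. Each pair was written so that its difference between groups is positive, and the 6 stathmin pairs share genes, so they are not independent. The ratio of Stmn2 to Stmn1 differed the most. On the log2 scale it was -4.18 and -4.12 in NPCs and -2.10 and -2.05 in neurons, a difference of 2.07, or 4.21-fold. The ratio of Stmn4 to Stmn1 differed by 1.35 and that of Stmn3 to Stmn1 by 0.92. Relative to Stmn1, each of the other stathmins was thus higher in both neuron libraries than in both NPC libraries.

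The 3 neuronal stathmins also differed among themselves. Counts of Stmn2 and Stmn3 were nearly equal in NPCs (log2 ratios of -0.11 and -0.03), and Stmn2 had the higher counts in neurons (1.08 and 1.09). The ratio of Stmn2 to Stmn4 differed by 0.72 and that of Stmn4 to Stmn3 by 0.43. In all 7 pairs the groups did not overlap, but the exact two-sided permutation test of 2 libraries against 2 cannot go below 0.333, and every pair had that p (0.333 adjusted over the 7). The smallest difference, 0.43, stands against SDs of 0.09 and 0.15 within groups.

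**Figure D3:**
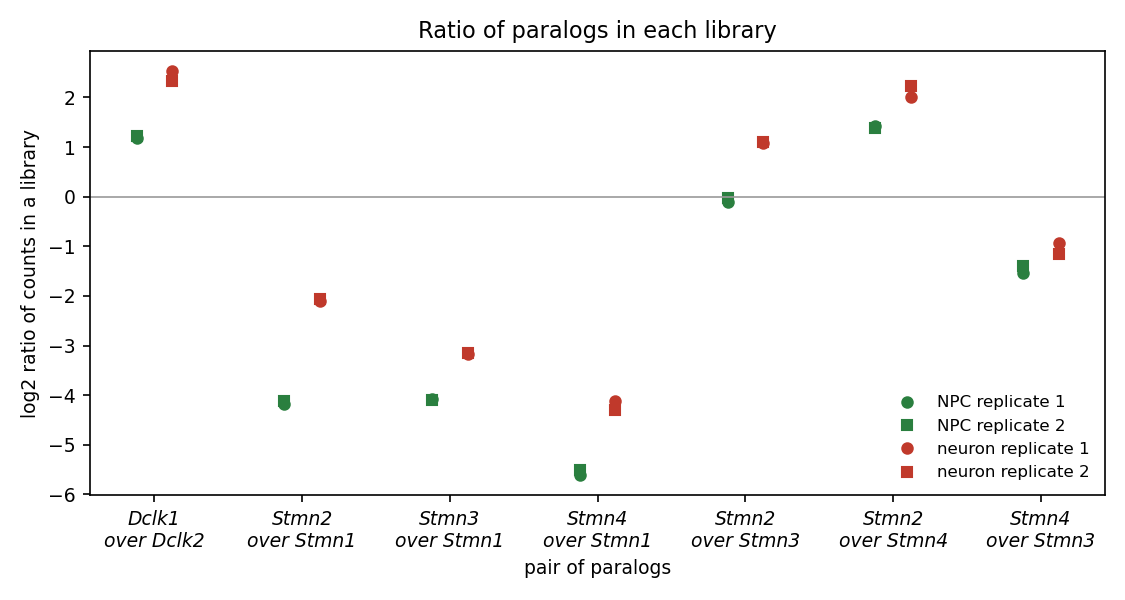
Log2 ratio of the counts of 2 paralogs in each of the 4 libraries, with NPCs in green and neurons in red. Each pair is written so that its difference is positive, from 0.43 for Stmn4 over Stmn3 to 2.07 for Stmn2 over Stmn1. In every pair the groups do not overlap.

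Levels of different genes were compared per kilobase of the longest protein-coding transcript. Stmn1 stood first in both groups, at 1667 CPM per kb in NPCs and 3368 in neurons. Dclk1 (19.6 and 57.7 CPM per kb) and Dclk2 (8.43 and 10.6) stood last in both. In between, NPCs had Stmn3 at 91.8, Dcx at 52.9, Stmn2 at 48.0 and Stmn4 at 27.6 CPM per kb. Neurons had Stmn2 at 408, Stmn3 at 351, Dcx at 154 and Stmn4 at 142 CPM per kb. Neighbours in this order, such as Dcx (150 and 159) and Stmn4 (146 and 138) in neurons, did not overlap between libraries, yet the order of Stmn2 depends on the length used. Per kilobase of all annotated exons, Stmn2 fell below Stmn3 in neurons (151 and 351) and below Stmn4 in NPCs (17.8 and 19.6), and the other members kept their order.

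Within the stathmin family, Stmn1 made up 90.9% and 90.8% of the summed level per kb in the NPC libraries and 78.9% in both neuron libraries. The share of Stmn2 was 2.57% and 2.66% in NPCs and 9.40% and 9.70% in neurons, and that of Stmn3 was 5.05% and 4.95% in NPCs and 8.13% and 8.31% in neurons. These shares depend on the length used. Per kilobase of all annotated exons, the mean share of Stmn2 was 1.69% in NPCs and 6.13% in neurons. That of Stmn3 was 8.75% and 14.3%, above Stmn2 in neurons too. Stmn1 thus remained the main stathmin transcript of neurons. Within the doublecortin family, Dclk2 made up 10.6% and 10.3% in NPCs and 4.56% and 4.95% in neurons, and Dcx 65.4% in both NPC libraries and 68.8% and 69.8% in neurons. Most of this sum is Dcx, the gene that helped define the sort, so the lower share of Dclk2 in neurons is no finding, and Dclk2 itself was 1.26-fold higher there.

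**Figure D4:**
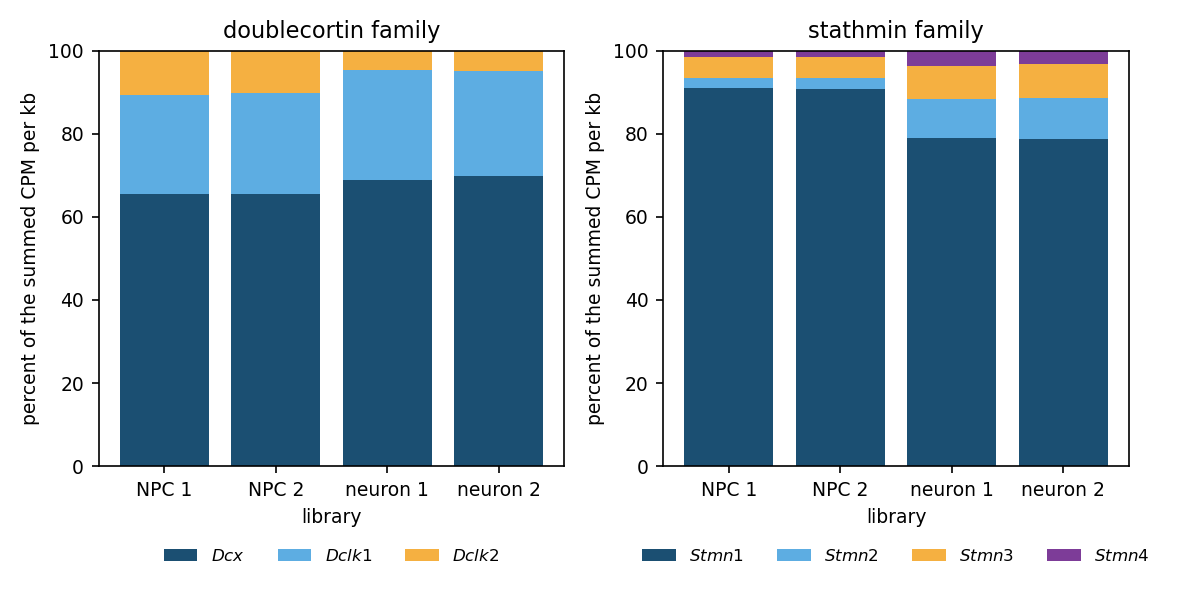
Share of each member in the summed level of its family (CPM per kb of the longest protein-coding transcript), as percent, in each library. Stmn1 takes 90.9% in NPC 1 and 78.9% in neuron 1, and Dclk2 takes 10.6% and 4.56% of a sum that is mostly Dcx, which helped define the sort.

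RefSeq promoter sequences (GRCm38.p6) were held for 4 of the 7 members, and the 250 bases before the first listed start of each are shown. Entries for Stmn1, Stmn2 and Stmn4 were not used here. Capitals mark matches, on either strand, to an E-box (CANNTG), a GC box (GGGCGG), the TATA motif TATAAA or the motif CCAAT.
Dcx, chrX:143933220-143933469, minus strand: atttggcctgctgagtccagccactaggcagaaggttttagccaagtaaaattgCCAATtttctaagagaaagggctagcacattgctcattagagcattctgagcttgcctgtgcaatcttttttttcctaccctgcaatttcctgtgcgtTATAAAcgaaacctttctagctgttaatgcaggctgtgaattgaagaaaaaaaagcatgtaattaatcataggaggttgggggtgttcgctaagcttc
Dclk1, chr3:55242114-55242363, plus strand: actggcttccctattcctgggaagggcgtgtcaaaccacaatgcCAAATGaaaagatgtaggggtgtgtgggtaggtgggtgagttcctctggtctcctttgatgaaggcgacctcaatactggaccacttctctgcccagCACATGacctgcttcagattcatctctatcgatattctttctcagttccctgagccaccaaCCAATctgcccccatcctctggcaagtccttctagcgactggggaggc
Dclk2, chr3:86920885-86921134, minus strand: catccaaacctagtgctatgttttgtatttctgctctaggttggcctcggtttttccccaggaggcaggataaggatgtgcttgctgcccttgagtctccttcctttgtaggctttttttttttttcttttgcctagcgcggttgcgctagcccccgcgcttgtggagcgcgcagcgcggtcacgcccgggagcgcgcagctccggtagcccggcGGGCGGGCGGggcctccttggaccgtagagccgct
Stmn3, chr2:181314501-181314750, minus strand: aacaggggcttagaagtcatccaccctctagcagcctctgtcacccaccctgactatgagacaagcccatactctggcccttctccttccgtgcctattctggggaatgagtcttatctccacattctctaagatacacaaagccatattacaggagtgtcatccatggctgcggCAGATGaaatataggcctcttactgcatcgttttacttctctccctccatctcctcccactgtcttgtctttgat
E-boxes, the sites bound by proneural factors among others, numbered 2 in the Dclk1 window, 1 in that of Stmn3 and 0 in those of Dcx and Dclk2. Of 32841 promoter windows of this length, 66.2% held at least 1. The Dclk2 window had 2 GC boxes, overlapping each other, and 21 CpG dinucleotides, whereas the other 3 windows had 0 GC boxes and 3 or 4 CpGs. The median over all windows was 6 CpGs, and 32.7% held a GC box. The Dcx window held 1 TATA box and 1 CCAAT box, and the Dclk1 window 1 CCAAT box, motifs found in 12.4% and 33.9% of windows. The table lists another start for Dcx and for Dclk1. The window of the other Dcx start held 1 TATA box and 0 CCAAT boxes, and that of the other Dclk1 start held 1 E-box and 0 CCAAT boxes. These matches describe letters only, and whether they bear on the change of any member was not tested.

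A list of kinases linked to doublecortin or stathmin was mostly higher in neurons with the main scaling. It also holds activators, scaffolds and upstream kinases of these kinases, and phosphatase partners. Of 31 tested, 21 rose in neurons, 5 in NPCs and 5 did not pass, with a median log2 change of 0.33 against -0.02 for all genes. By the same rule, 35.8% of all genes tested were higher in neurons and 36.9% in NPCs. Cdk5r1, the p35 activator of Cdk5, had the smallest p among those higher in neurons and went from 46.9 ± 0.141 to 199 ± 10.2 CPM (SD, n = 2), with a log2 change of 2.09 ± 0.06. Its kinase Cdk5, which phosphorylates doublecortin, had one of 0.81 ± 0.06, and the Jun kinase genes Mapk8, Mapk9 and Mapk10 had 1.49, 0.63 and 1.79. Cdk1, the mitotic kinase that phosphorylates Stmn1, went the other way, from 98.1 to 24.1 CPM (-2.03 ± 0.06). Aurka, Aurkb and Plk1, also mitotic kinases, had log2 changes of -1.76, -1.93 and -2.21, and Ppp1ca, a catalytic subunit of protein phosphatase 1, had -0.24. With library size only, the count higher in neurons fell to 14 and the count higher in NPCs became 8. Genes named here beyond Cdk5r1 and Cdk1 were chosen after their values were seen.

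Enzymes that attach palmitate, the lipid that anchors the neuronal stathmins, showed no common direction. Of 7 tested, 3 rose in neurons (35.8% of all genes did), 1 in NPCs (36.9%) and 3 did not pass, with a median log2 change of 0.01. Zdhhc13 had 0.66 ± 0.06 and Zdhhc15, the 1 higher in NPCs, had -0.86 ± 0.09.

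Other microtubule-associated proteins were also mostly higher in neurons. Of 13 tested, 10 rose in neurons (35.8% of all genes did), 1 in NPCs (36.9%) and 2 did not pass (median 0.67). Mapt, which encodes tau, went from 94.9 ± 1.53 to 585 ± 35.8 CPM (SD, n = 2), with a log2 change of 2.62 ± 0.06. Mtap7, which encodes a kinesin cofactor, was the 1 higher in NPCs, at 4.80 and 0.62 CPM (-2.95 ± 0.22). Mtap1b and Mtap2, abundant neuronal lattice-binding proteins picked out after their values were seen, had log2 changes of 1.60 and 1.61, close to that of Dclk1.

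Proteins of microtubule ends passed as higher in neurons in 17 of 18 genes (median 0.84), as did 35.8% of all genes tested. Nav3, a plus-end protein, had the smallest p, with a log2 change of 2.38 ± 0.06. Ckap5, a microtubule polymerase that also serves the spindle, was the 1 higher in NPCs (-0.23 ± 0.06), a call lost without NPC replicate 2 (-0.18, edgeR adjusted p = 0.091). Genes of tubulin folding and modification, which include folding cofactors as well as enzymes, rose in neurons in 16 of 18. In NPCs 0 rose, and 2 did not pass (median 0.66). Vash2, a tubulin detyrosinating enzyme, went from 76.3 to 266 CPM (1.80 ± 0.06).

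Severing and depolymerising proteins went mostly toward NPCs, unlike the stathmins. Of 12 tested, 3 rose in neurons (35.8% of all genes did), 8 in NPCs (36.9%) and 1 did not pass (median -1.02). Kif2c, a kinesin that depolymerises microtubules at mitotic centromeres, had the smallest p and went from 89.1 to 19.9 CPM (-2.16 ± 0.06). Spast, the severing enzyme spastin, went from 199 to 290.2 CPM (0.55 ± 0.05), and Kif2a, named after its values were seen, was also higher in neurons (0.54). The difference of this list from the others was not tested. Markers of cycling cells moved with it, at a summed 1717 to 1746 CPM in NPCs and 379 to 399 CPM in neurons, and their part was not tested.

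**Figure D5:**
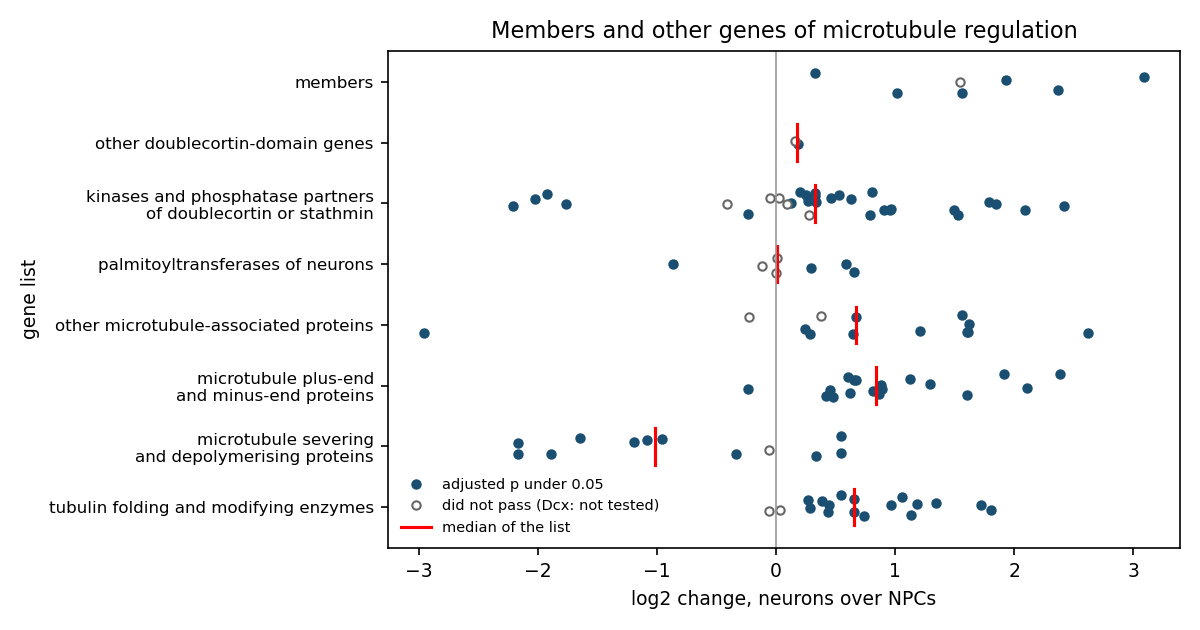
Log2 change, neurons over NPCs, of all members and of each tested gene in 7 lists of microtubule regulation. Filled points are genes past the adjusted p of 0.05, open points did not pass, and red bars are list medians. Dcx is an open point among the members because it helped define the sort and was not tested. The median is -1.02 for severing and depolymerising proteins and 0.84 for proteins of microtubule ends.

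For each member, the 2 genes with the nearest pattern were found among genes averaging 20 CPM or more, by the Euclidean distance of log2 levels over the 4 libraries, each centred on its own mean. With 4 libraries in 2 groups this mostly finds genes with a like change. The nearest to Dcx were Smpd3 (distance 0.022) and Tmem108 (0.033), and to Dclk1 they were Pcyt1b (0.032) and Slc6a15 (0.033). Ppp1r9a, which encodes the phosphatase partner neurabin, was nearest to Dclk2 (0.023), followed by Slc25a12 (0.026). Trim3 (0.019) and Arrb1 (0.036) were nearest to Stmn1. Stmn2 had the most distant neighbours, Rspo3 (0.103) and Camk2b (0.104). Stmn3 was nearest to the neuronal kinesin gene Kif5a (0.038) and to Coro1a (0.077), and Stmn4 to Nav3 and Ntm (0.042 each).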

How the data were processed

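Estimated counts per gene were deposited by the authors in 1 table for 4 mouse libraries (2 NPC, 2 neuron). Each of the 65205 values above 0 and below 10000 was a multiple of 1 read of 101 bases within 0.01 base. The submitters' processing notes name TopHat 1.2.0, SAMtools 0.1.18, CASAVA 1.9 and build mm9, without roles. How reads were counted, on which annotation and strand, is not given in the sources used here. No gene coordinates of the reference (GRCm38) were joined to the counts, and its transcript lengths are approximate for them.

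Counts were rounded, filtered with filterByExpr (15292 of 23240 rows kept) and scaled with TMM factors of 0.928 to 1.08. Groups were taken from sample titles. Neurons were compared with NPCs with edgeR 4.0.16 (R 4.3.3) by its unpaired, two-sided quasi-likelihood test, with p-values adjusted over all genes (Benjamini-Hochberg) and a threshold of 0.05. The SE of a log2 change was taken from the test's F value. The biological coefficient of variation was 4.89%. Duplicates differed by more than sampling noise (chi-square per gene of 4.56 for NPCs and 14.1 for neurons over genes with at least 20 counts in the pair, but of 2.21 and 2.07 over those with at most 200) and were kept as separate samples. On simulated counts for 14017 genes, the calls included 28 of 50 genes changed by 1.25-fold, 49 of the 50 at 1.5-fold and 50 of the 50 at 2-fold. There were 5 false calls of 182. The simulation changed only 50 genes at each size, in either direction, with the same coefficient of variation for all genes. In the data 72.6% of genes were called, so the simulation cannot show power or false calls under so broad a change. Member counts ran from 2140 to 190734 per library. Counting error and the spread between duplicates were not separated.

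The members and gene lists were chosen with earlier results of these data known. Dcx helped define the sort and was not tested. Genes were named by rule: all members, Nes, the gene with the smallest p in each direction of each list, and the 2 nearest patterns per member. Others are said to be chosen after their values were seen, and some items are not reported here. Alternatives were RLE, upper-quartile and library-size scaling, DESeq2 1.42.0, limma-voom (limma 3.58.1), no filter, a filter at 5 CPM, a replicate block and leaving out each library. Alignments of coding sequences used Biopython 1.88.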

Additional observations from a re-analysis of the deposited data

How the results depend on the processing

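Of the 6 members tested, 6 were called higher in neurons under every alternative run except library size as the only scaling, where Dclk2 did not pass (5 called, Dclk2 at 0.12), and 0 were called higher in NPCs. Over the 12 alternatives the log2 changes ranged from 1.35 to 1.61 for Dclk1, 0.12 to 0.43 for Dclk2, 0.81 to 1.08 for Stmn1, 2.88 to 3.17 for Stmn2, 1.73 to 2.01 for Stmn3 and 2.16 to 2.42 for Stmn4. For Dcx they ranged from 1.34 to 1.60, as a description. Leaving out a library or adding a pseudocount of 1 could not turn any of the 7 paralog differences, since the groups do not overlap and the counts are high, so this says nothing of their stability. The labels number the duplicates but do not say that equal numbers share a litter or day, and the deviations of NPC 1 and neuron 1 correlated at -0.01 across genes. With the replicate block, 11206 genes were called in place of 11108, the ratio differences are the same by construction, and 6 members were called.

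Counts in the gene lists moved by more than 1.5 times in small numbers. Other doublecortin-domain genes higher in neurons went from 1 to 0 with library size only and with upper-quartile factors, and was 0 to 1 with libraries left out (0 without NPC replicate 1). Kinases and phosphatase partners higher in neurons went from 21 to 14 with library size only, at that limit. With library size only, those higher in NPCs became 8 for kinases and phosphatase partners, 3 for palmitoyltransferases and 2 for other microtubule-associated proteins. With upper-quartile factors they became 2 for palmitoyltransferases and 2 for other microtubule-associated proteins. The filter at 5 CPM gave 2 for palmitoyltransferases, and the replicate block gave 2 for other microtubule-associated proteins. With libraries left out, other microtubule-associated proteins higher in NPCs numbered 1 to 2 (2 without neuron replicate 2) and proteins of microtubule ends higher in NPCs 0 to 1 (0 without NPC replicate 2). The cause was not tested. Dcdc2c turned to -0.023 with library size only, and Ppp1r9a (0.13) and Slc25a12 (0.14) lost their calls there. An alternative length chosen after seeing the data, the union of exons, put Stmn1 at 87.7% and 75.5% of the stathmin level per kb in NPCs and neurons, and Stmn2 at 1.69% and 6.13%. Depth left Dclk3, with 6 to 10.1 counts in a library, untested.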
